A study of Homo sapiens with 24 samples.

Results

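The genes described here are 10 regulators of splicing, 8 SR splicing factors (SRSF1, SRSF2, SRSF3, SRSF5, SRSF6, SRSF7, TRA2A and TRA2B) and 2 CDC-like kinases (CLK1 and CLK4). They were taken by symbol from a table of 23354 genes, where all 10 were found, and all 10 passed the filter on low counts in both cell lines. The sequenced RNA came from 2 established human acute myeloid leukemia (AML) lines, MV4-11 and KG-1a, given as wild type in the labels. Each line was left untreated, or was treated with 1 μM of 8-chloro-adenosine (8CA) or 1 μM of 8-amino-adenosine (8AA), and RNA was taken after 8 h or 24 h. This gives 12 groups (2 lines, 3 treatments and 2 times) of 2 libraries, lettered A and B, all from cells grown in IMEM with 10% fetal bovine serum. The hours of the untreated libraries stand in the sample titles alone.

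8CA and 8AA are adenosine analogs, with a chlorine atom in one and an amino group in the other at the same position of the base. Both can be built into RNA in place of adenosine. SR proteins bind exonic sequences of pre-mRNA through RNA recognition motifs, and their arginine- and serine-rich domains help to recruit the spliceosome. SR protein kinases (SRPKs) in the cytoplasm and CDC-like kinases (CLKs) in the nucleus phosphorylate those domains and so set where SR proteins are and how they act. Many SR genes and CLK1 limit their own output by splicing, through exons with early stop codons or introns that stay in the RNA, and the transcripts concerned are degraded or held in the nucleus.

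Such transcripts are annotated for all 10 genes. GENCODE release 29 (GRCh38) lists 119 transcripts for them, of which 41 are protein coding, 22 are targets of nonsense-mediated decay and 46 hold a retained intron. The counts are per gene, so a gene's value sums over all of these, and a change in its splicing cannot be read from it. The stretches printed next show what the sum can hide. They are the first bases of exons that belong to a decay transcript and to 0 of the coding transcripts of the gene, read from the first base of the exon to its stop codon, in capitals. The SRSF3 exon (456 bases, chr6:36599821-36600276, plus strand) reaches its stop codon within 34 bases, the SRSF7 exon (449 bases, chr2:38748898-38749346, minus strand) within 28 bases and the SRSF6 exon (268 bases, chr20:43459153-43459420, plus strand) within 152 bases.
SRSF3: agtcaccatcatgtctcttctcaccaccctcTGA
SRSF7: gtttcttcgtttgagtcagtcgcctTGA
SRSF6: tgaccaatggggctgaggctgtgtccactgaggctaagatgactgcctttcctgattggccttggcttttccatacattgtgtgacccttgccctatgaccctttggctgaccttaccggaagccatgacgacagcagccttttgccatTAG

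The promoters of 6 of the genes follow, because 3 of them (CLK1, CLK4 and SRSF5) were at a higher level and 3 (SRSF1, SRSF3 and SRSF7) at a lower level in treated cells. Each is the RefSeq GRCh38.p14 sequence from 250 bases before to 50 after the start of the gene, 5′ to 3′ on the strand of the gene. The table of promoters held 8 of the 10 genes (SRSF2 and TRA2A were not matched). Capitals mark matches, on either strand, to CCATTTTG, to TGACGT (the core of the cAMP response element), to CCAAT (the box of that name), to GGGCGG (the GC box) or to TATAAA (the TATA box), and no motif holds another. The letters of the first were chosen after the sequences were seen. The stretches are CLK1 (chr2:200864609-200864908, minus strand), CLK4 (chr5:178627001-178627300, minus strand), SRSF5 (chr14:69766892-69767191, plus strand), SRSF1 (chr17:58007197-58007496, minus strand), SRSF3 (chr6:36594112-36594411, plus strand) and SRSF7 (chr2:38751445-38751744, minus strand).
CLK1: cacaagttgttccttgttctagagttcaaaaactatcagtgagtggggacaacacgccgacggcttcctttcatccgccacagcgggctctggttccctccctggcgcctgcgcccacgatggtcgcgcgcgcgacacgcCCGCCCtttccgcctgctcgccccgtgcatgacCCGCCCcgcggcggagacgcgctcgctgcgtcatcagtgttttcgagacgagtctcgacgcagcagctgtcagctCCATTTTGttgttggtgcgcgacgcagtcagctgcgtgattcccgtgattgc
CLK4: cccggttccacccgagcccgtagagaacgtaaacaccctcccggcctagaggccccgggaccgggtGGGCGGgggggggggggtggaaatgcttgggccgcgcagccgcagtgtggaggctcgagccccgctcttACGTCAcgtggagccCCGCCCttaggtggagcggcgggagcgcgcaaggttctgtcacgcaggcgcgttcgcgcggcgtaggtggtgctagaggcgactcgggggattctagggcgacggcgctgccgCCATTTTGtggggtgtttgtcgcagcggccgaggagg
SRSF5: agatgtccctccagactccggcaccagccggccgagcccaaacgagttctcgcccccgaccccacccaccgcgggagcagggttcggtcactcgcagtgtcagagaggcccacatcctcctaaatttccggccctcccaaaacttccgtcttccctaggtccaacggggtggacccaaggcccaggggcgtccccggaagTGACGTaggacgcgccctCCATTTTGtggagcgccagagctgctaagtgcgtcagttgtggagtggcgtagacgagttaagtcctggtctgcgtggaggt
SRSF1: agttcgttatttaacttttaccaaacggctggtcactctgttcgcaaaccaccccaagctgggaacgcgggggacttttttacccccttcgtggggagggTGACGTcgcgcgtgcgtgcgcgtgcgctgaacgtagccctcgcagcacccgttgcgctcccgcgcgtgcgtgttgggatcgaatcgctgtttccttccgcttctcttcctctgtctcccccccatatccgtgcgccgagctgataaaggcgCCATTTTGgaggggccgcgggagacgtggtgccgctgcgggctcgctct
SRSF3: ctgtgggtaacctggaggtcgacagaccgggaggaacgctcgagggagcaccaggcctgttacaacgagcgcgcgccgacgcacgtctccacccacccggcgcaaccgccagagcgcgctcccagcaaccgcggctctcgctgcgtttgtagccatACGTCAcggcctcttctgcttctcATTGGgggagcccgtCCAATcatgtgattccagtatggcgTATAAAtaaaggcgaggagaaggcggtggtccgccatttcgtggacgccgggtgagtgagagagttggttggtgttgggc
SRSF7: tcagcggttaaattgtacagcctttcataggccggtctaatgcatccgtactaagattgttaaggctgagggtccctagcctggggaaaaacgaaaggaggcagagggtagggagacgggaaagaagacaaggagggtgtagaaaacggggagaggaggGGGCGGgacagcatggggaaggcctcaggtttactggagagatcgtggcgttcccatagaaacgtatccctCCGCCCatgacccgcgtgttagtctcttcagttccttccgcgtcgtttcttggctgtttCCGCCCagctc

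CCATTTTG stood in 4 of the 8 promoters (SRSF1, SRSF5, CLK1 and CLK4) and in 1.59% of 35116 promoter windows of the same length. TGACGT stood in 5 of 8 (SRSF1, SRSF3, SRSF5, TRA2B and CLK4) and in 7.98% of all windows, and GGGCGG in 5 of 8 (SRSF6, SRSF7, TRA2B, CLK1 and CLK4) and in 45% of all windows. CCAAT (34.6% of all windows) and TATAAA (11.5%) were found in 1 promoter each, that of SRSF3. CCATTTTG was thus shared by SRSF1, which was lower in treated cells, and by the 3 genes that were higher. Its letters were chosen after these promoters were seen, so its share among them follows from the choice and tests nothing. The 8 promoters stand at the outer start of each gene, a limit not set on the 35116 windows. No link between any motif and a change was tested.

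Libraries held 18633963 to 24520078 counts (median 21402883). Nothing in the labels says that libraries A and B of a group came from separate cultures, so p-values measure only the spread between these libraries, which may be technical. Levels are given as CPM, counts scaled to a common library size by TMM, edgeR's method for differences in library composition, and "edgeR adjusted p" stands for the p of edgeR's quasi-likelihood test after Benjamini-Hochberg adjustment over all genes tested (12800 in MV4-11 and 12711 in KG-1a). A gene is called changed below 0.05. The KG-1a libraries after 8AA at 24 h stood apart from each other: a chi-square of their counts came to 12.3 per degree of freedom, against 1.43 to 5.20 in the other groups. Results of the 10 genes on them are therefore also given with each of them left out, while those of other genes are not. MV4-11 held the myeloid markers FLT3 (415 to 596 CPM) and LYZ (2556 to 3672 CPM), with CD34 at no more than 0.165 CPM. It also held SPN (885 to 1063 CPM), SPI1 (210 to 273), CD33 (102 to 135), PTPRC (78.8 to 146) and MEIS1 (82.9 to 99.7). MPO (7.69 to 12.6 CPM) and HOXA9 (6.87 to 9.01 CPM) were lower there. KG-1a held PTPRC (709 to 820 CPM), SPN (546 to 802), CD34 (339.7 to 656), HOXA9 (23.2 to 28.9) and SPI1 (6.11 to 8.07). In KG-1a, CD33, FLT3, LYZ and MPO were at 2.25 CPM or below in each library and MEIS1 was at 0. Of 13 markers of other cell types, 10 were at 0 in all MV4-11 libraries and the sum was 0.656 to 2.64 CPM, while in KG-1a 8 were at 0 and the sum was 216 to 352 CPM, mainly from the T-cell genes CD3D (181 to 273 CPM) and CD3E (22.9 to 81.7 CPM).

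In untreated cells, levels between genes were compared per kilobase of exon (RPKM), over the 4 untreated libraries of a line. These were 2 libraries at 8 h and 2 at 24 h, so each SD and range also holds any difference between the times. SRSF2, which binds exonic enhancers, was highest in both lines, at 162 ± 6.36 RPKM in MV4-11 and 132 ± 3.47 in KG-1a (SD, n = 4). SRSF1 followed at 141 ± 9.09 and 127 ± 7.67 RPKM, and SRSF3 at 135 ± 8.04 and 115 ± 6.61 RPKM. The ranges of SRSF1 and SRSF3 overlapped in both lines, and those of SRSF2 and SRSF1 overlapped in KG-1a. The kinases were lowest, CLK1 at 20.7 ± 2.0 and 22.2 ± 1.41 RPKM and CLK4 at 5.73 ± 0.291 and 6.04 ± 0.513 RPKM. Between the lowest factor and CLK1, and between CLK1 and CLK4, the ranges did not overlap in either line. SRSF7 and SRSF6 came next, SRSF7 above SRSF6 in MV4-11 and the reverse in KG-1a, in each line without overlap. SRSF5 (62.1 ± 2.55 and 60.6 ± 7.90 RPKM), TRA2B (48.3 ± 3.32 and 39.5 ± 3.65 RPKM) and TRA2A (38.5 ± 2.98 and 49.4 ± 3.96 RPKM) filled the places between. In KG-1a the ranges of SRSF5 and TRA2A overlapped, as did those of TRA2A and TRA2B.

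At 24 h, 5 SR factors (SRSF1, SRSF2, SRSF3, SRSF7 and TRA2B) were called lower in all 4 comparisons of a treated with an untreated group, a pattern that 7.64% of the 11485 genes tested in both lines showed. CLK4 was called higher in all 4, as were 4.01% of genes. CLK1 and SRSF5 were called higher with both drugs in KG-1a, and in MV4-11 at 24 h neither passed the test under TMM scaling. SRSF6 and TRA2A were called in 1 comparison each, lower after 8CA in KG-1a at 24 h. In all, 45 of 80 tests were called, 31 lower and 14 higher, where 16% and 14.9% of the tests of all genes were, summed over the same 8 comparisons. The factors are grouped by these calls only for reading. Counts are relative to the library, so fewer cells and less RNA per cell cannot be told apart, and a change in a cell's total RNA is not seen. The 8CA and 8AA groups of a line and time share their untreated libraries.

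**Figure D1:**
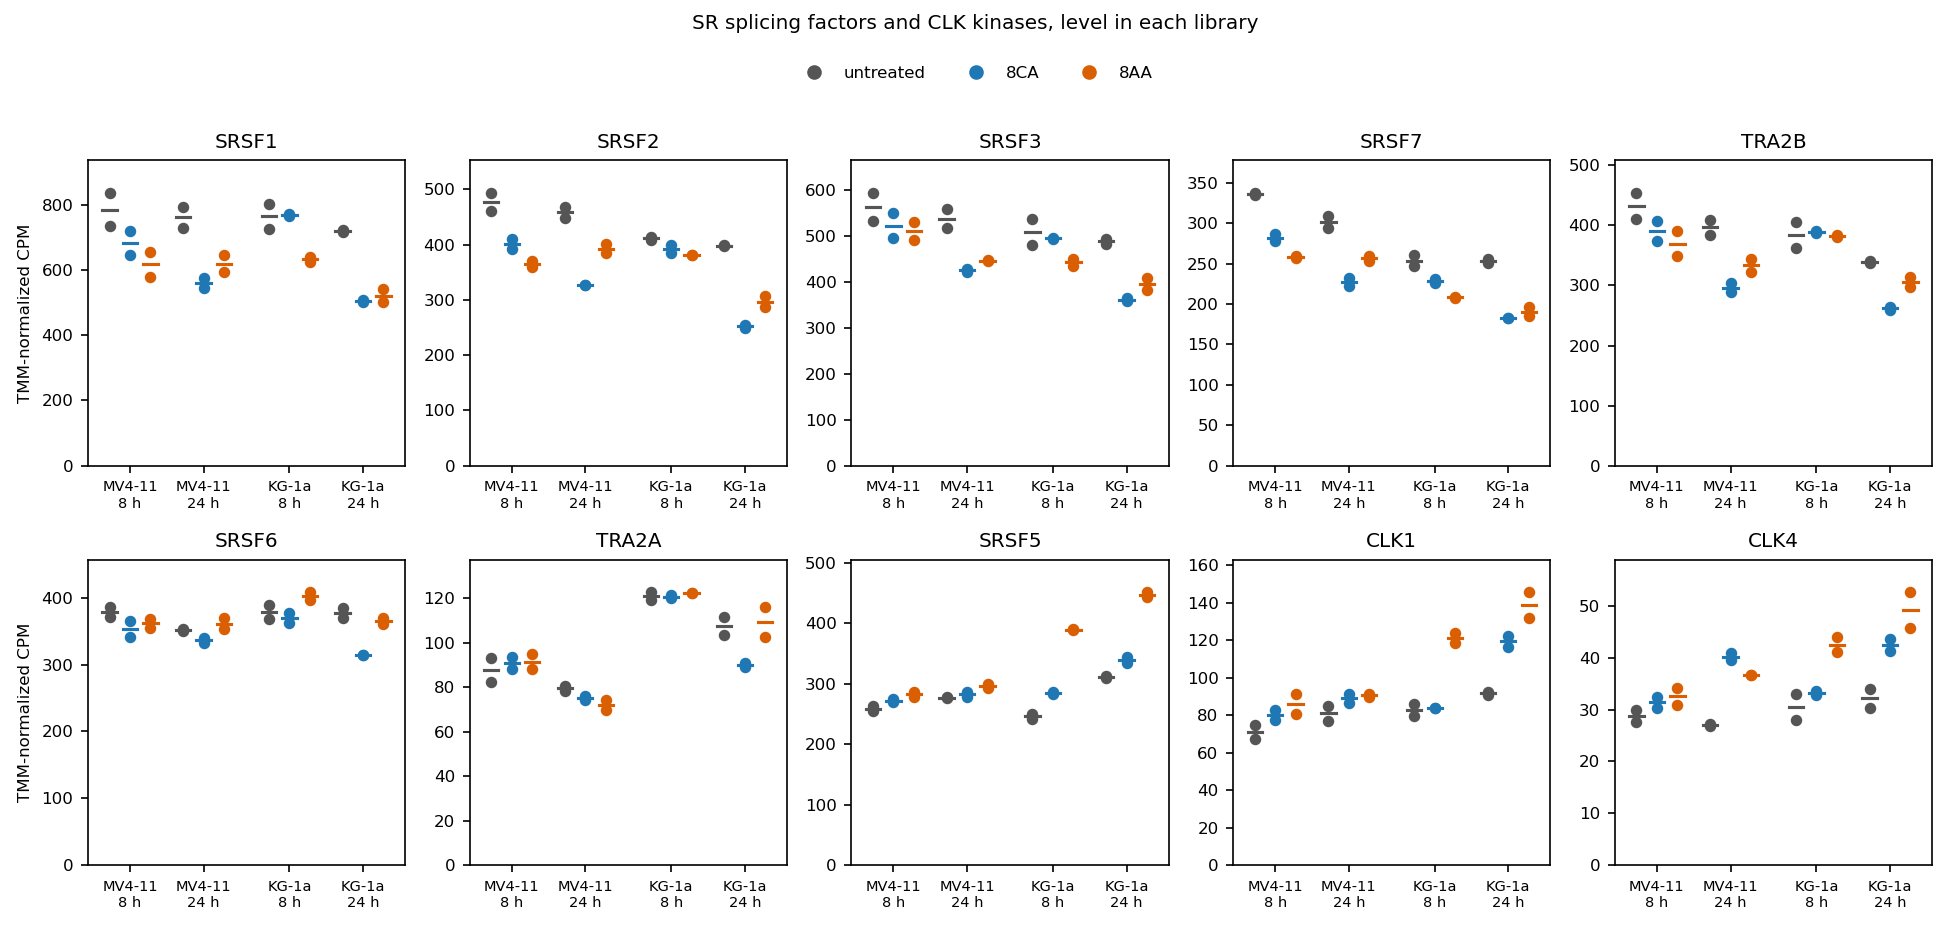
TMM-normalized CPM of the 10 genes (y axis, linear, from 0) in each of 24 libraries, by cell line and time (x axis). Each point is 1 library and each bar the mean of 2, with untreated cells in grey, 8CA in blue and 8AA in orange. The upper row holds the 5 SR factors that were lower with both drugs at 24 h in both lines, and in the lower row CLK4 was higher in all 4 comparisons at 24 h.

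SRSF1 is the classical SR factor that binds purine-rich exonic enhancers and also acts in RNA export and translation. In MV4-11, SRSF1 lay at 835 and 735 CPM in the untreated libraries at 8 h, 721 and 646 after 8CA and 655 and 578 after 8AA. At 24 h the values were 729 and 794 untreated, 575 and 543 after 8CA and 645 and 594 after 8AA. Every treated library was thus below both of its untreated ones. In KG-1a, SRSF1 was at 726 and 803 CPM untreated, 764 and 772 after 8CA and 625 and 639 after 8AA at 8 h, and at 722 and 716, 503 and 508 and 501 and 540.4 at 24 h. Only the 8CA libraries at 8 h overlapped the untreated ones. At 24 h the log2 fold changes were −0.45 ± 0.073 (SE) after 8CA and −0.30 ± 0.073 after 8AA in MV4-11, and −0.51 ± 0.050 and −0.47 ± 0.050 in KG-1a (edgeR adjusted p = 0.000162, 0.00642, 1.01e-06 and 1.52e-06). At 8 h SRSF1 was lower after 8AA in MV4-11 (−0.35 ± 0.073, edgeR adjusted p = 0.00217) and in KG-1a (−0.27 ± 0.050, edgeR adjusted p = 0.000557). Without MV4-11 untreated 24 h library B, or without 8AA 24 h library B, the MV4-11 8AA call at 24 h was lost (edgeR adjusted p = 0.0859 and 0.0738). After 8CA at 8 h in MV4-11, SRSF1 was called without the filter on low counts (−0.20, edgeR adjusted p = 0.00028).

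SRSF2, known also as SC35, had the largest fall of the 10 genes, after 8CA in KG-1a at 24 h. KG-1a libraries held 399 and 397 CPM untreated, 249.9 and 255 after 8CA and 307 and 287 after 8AA at that time. At 8 h they held 409 and 414, 384 and 399 and 382 and 381. Treated KG-1a libraries were thus below the untreated ones at both times, and further below at 24 h. MV4-11 libraries held 493 and 460.3 CPM untreated, 409 and 393 after 8CA and 369.7 and 359 after 8AA at 8 h, and 449 and 468, 327 and 326 and 400.3 and 384 at 24 h. In MV4-11 the groups were apart at both times. Log2 fold changes at 24 h were −0.66 ± 0.044 (edgeR adjusted p = 1.53e-08) after 8CA and −0.42 ± 0.043 (edgeR adjusted p = 9.40e-07) after 8AA in KG-1a, and −0.49 ± 0.046 (edgeR adjusted p = 7.53e-07) and −0.22 ± 0.045 (edgeR adjusted p = 0.00167) in MV4-11. At 8 h SRSF2 was called in MV4-11 (−0.25 ± 0.045 after 8CA and −0.39 ± 0.046 after 8AA) and in KG-1a was −0.071 ± 0.043 and −0.11 ± 0.043, neither past the threshold, although the latter passed it with DESeq2 size factors (−0.12, edgeR adjusted p = 0.0388). In the table SRSF2 overlaps MFSD11, on the opposite strand, by 1222 bases, and strand use in counting is not given in the sources used here. MFSD11 had at most 580 counts in a library.

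SRSF3 is the smallest SR protein and acts in splicing, 3′ end choice and export. In MV4-11 at 24 h, SRSF3 was at 516 and 559 CPM untreated, 422 and 428 after 8CA and 448 and 444 after 8AA. In KG-1a at 24 h it was at 492 and 483, 358 and 365 and 382 and 408. None of these treated libraries reached an untreated one. The log2 fold changes were −0.34 ± 0.060 (edgeR adjusted p = 0.000312) after 8CA and −0.27 ± 0.060 (edgeR adjusted p = 0.00353) after 8AA in MV4-11, and −0.43 ± 0.052 (edgeR adjusted p = 7.20e-06) and −0.30 ± 0.052 (edgeR adjusted p = 0.000151) in KG-1a. At 8 h, MV4-11 held 593 and 532 CPM untreated, 549 and 495 after 8CA and 529.5 and 492 after 8AA, and KG-1a 480.0 and 537, 493 and 495 and 435 and 450.5. Only 8AA in KG-1a was called at that time (−0.20 ± 0.052, edgeR adjusted p = 0.00711), and that call was lost without KG-1a untreated library B (−0.12, edgeR adjusted p = 0.137) or 8AA library A (−0.18, edgeR adjusted p = 0.0751). Without the filter on low counts 8AA in MV4-11 at 8 h was called too (−0.13, edgeR adjusted p = 0.0201). The 24 h call after 8AA in MV4-11 was lost without untreated library B (−0.22, edgeR adjusted p = 0.0566).

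SRSF7, the SR factor with a zinc knuckle, was called lower in 7 of the 8 comparisons, as were 2.06% of all genes in 7 or more. In MV4-11, SRSF7 fell from 337 and 335 CPM in untreated libraries to 287 and 278 after 8CA and 259.8 and 257 after 8AA at 8 h. At 24 h it was at 294 and 308 untreated, 222 and 232 after 8CA and 259 and 253 after 8AA. In KG-1a the 8 h libraries held 247 and 260.4 CPM untreated, 231 and 226 after 8CA and 208 and 208 after 8AA, and the 24 h libraries 256 and 251, 182 and 183 and 196 and 186. Treated and untreated libraries did not overlap in any of the 8 comparisons. The 8 h log2 fold changes were −0.25 ± 0.043 (edgeR adjusted p = 0.00188) after 8CA and −0.38 ± 0.043 (edgeR adjusted p = 1.25e-05) after 8AA in MV4-11, and −0.15 ± 0.044 (not called, edgeR adjusted p = 0.132) and −0.29 ± 0.044 (edgeR adjusted p = 0.000151) in KG-1a. The 24 h values were −0.41 ± 0.043, −0.23 ± 0.043, −0.47 ± 0.045 and −0.41 ± 0.045 in the same order. All 7 calls were kept in all 10 alternatives tried.

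TRA2B, the SR-like factor that binds GAA-rich exonic enhancers, fell at 24 h in both lines. In MV4-11, TRA2B was at 384 and 409 CPM untreated, 303 and 289.8 after 8CA and 344 and 323 after 8AA, and in KG-1a at 341 and 337, 259.6 and 265 and 297 and 314. All treated libraries were below their untreated ones. The log2 fold changes were −0.42 ± 0.063 (edgeR adjusted p = 7.55e-05) and −0.25 ± 0.063 (edgeR adjusted p = 0.00739) in MV4-11, and −0.37 ± 0.050 (edgeR adjusted p = 2.33e-05) and −0.15 ± 0.050 (edgeR adjusted p = 0.0201) in KG-1a. The smallest, after 8AA in KG-1a, was −0.054 (edgeR adjusted p = 0.387) when libraries were scaled by their total alone and −0.076 (edgeR adjusted p = 0.208) under upper-quartile scaling, and without KG-1a untreated 24 h library A or B its edgeR adjusted p was 0.0737 or 0.0616. The MV4-11 8AA call was lost without untreated library B or 8AA library B (edgeR adjusted p = 0.0844 and 0.0764). At 8 h it was called once, after 8AA in MV4-11 (−0.23 ± 0.063, edgeR adjusted p = 0.0132), where the libraries held 454 and 411 CPM untreated and 389.9 and 349.6 treated, and without untreated 8 h library A or 8AA library B that call was lost (edgeR adjusted p = 0.148 and 0.145), as it was when libraries were scaled by their total (edgeR adjusted p = 0.0543). Without the filter on low counts TRA2B was also called after 8CA at 8 h in MV4-11 (−0.15, edgeR adjusted p = 0.0223).

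CLK4 is a nuclear kinase of SR proteins. In MV4-11 at 24 h, CLK4 rose from 27.3 and 26.8 CPM in untreated cells to 40.9 and 39.5 after 8CA and 36.6 and 36.6 after 8AA. In KG-1a at 24 h it went from 34.1 and 30.4 to 41.3 and 43.7 and 45.8 and 52.6. Every treated library was above both untreated ones. The log2 fold changes were 0.57 ± 0.069 (edgeR adjusted p = 1.01e-05) after 8CA and 0.44 ± 0.070 (edgeR adjusted p = 0.000269) after 8AA in MV4-11, and 0.40 ± 0.088 (edgeR adjusted p = 0.00165) and 0.61 ± 0.087 (edgeR adjusted p = 2.80e-05) in KG-1a, and all 4 calls were kept in all 10 alternatives. At 8 h, MV4-11 held 30.0 and 27.6 CPM untreated, 32.4 and 30.4 after 8CA and 34.2 and 30.9 after 8AA, and KG-1a held 28.0 and 32.9, 32.8 and 33.5 and 41.1 and 44.0. Of these only 8AA in KG-1a passed the test under TMM scaling (0.48 ± 0.088, edgeR adjusted p = 0.000621), and 8AA in MV4-11 (0.17 ± 0.071, edgeR adjusted p = 0.0764) passed it when libraries were scaled by their total (0.22, edgeR adjusted p = 0.0365) or by upper quartile (0.22, edgeR adjusted p = 0.0295).

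CLK1, the best studied kinase of its family, was called higher in 4 comparisons, 3 of them in KG-1a. KG-1a libraries at 24 h held 92.5 and 90.9 CPM of CLK1 untreated, 117 and 122 after 8CA and 132 and 145 after 8AA, and at 8 h 79.3 and 86.0, 84.0 and 83.7 and 118 and 124. After 8CA the rise was thus seen at 24 h and after 8AA at both times. In MV4-11, CLK1 lay at 74.6 and 67.1 CPM untreated, 82.6 and 77.5 after 8CA and 91.1 and 80.6 after 8AA at 8 h, and at 77 and 85.1, 91.4 and 86.7 and 89.7 and 91.3 at 24 h. All treated MV4-11 libraries were above the untreated ones of their time. The log2 fold changes in KG-1a were 0.55 ± 0.058 (edgeR adjusted p = 4.86e-06) after 8AA at 8 h, 0.38 ± 0.058 (edgeR adjusted p = 7.12e-05) after 8CA at 24 h and 0.59 ± 0.058 (edgeR adjusted p = 5.55e-07) after 8AA at 24 h. In MV4-11 they were 0.28 ± 0.070 (edgeR adjusted p = 0.00758) after 8AA at 8 h, and 0.14 ± 0.069 after 8CA and 0.16 ± 0.069 after 8AA at 24 h (edgeR adjusted p = 0.122 and 0.095). Scaled by library total alone, the latter pair passed the test, at 0.19 and 0.21 (edgeR adjusted p = 0.0461 and 0.0401), as it did under upper-quartile scaling (0.0496 and 0.0427) and without the filter (0.0387 and 0.0319). The 8 h call in MV4-11 was lost without untreated library B (0.19, edgeR adjusted p = 0.114) or 8AA library A (0.19, edgeR adjusted p = 0.0842). The table places MIR1244-2 on the opposite strand over all of CLK1, with at most 288 counts in a library.

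SRSF5, another SR factor, was called higher in 5 of the 8 comparisons, all 4 in KG-1a and 8AA at 8 h in MV4-11. KG-1a libraries held 242 and 250.1 CPM of SRSF5 untreated, 282 and 285 after 8CA and 391 and 388 after 8AA at 8 h, and 309.6 and 313, 335 and 344 and 451 and 442 at 24 h. Both 8AA libraries were above all others of the line at their time. Log2 fold changes after 8AA in KG-1a were 0.66 ± 0.040 (edgeR adjusted p = 1.98e-08) at 8 h, the largest rise of the 10 genes, and 0.52 ± 0.040 (edgeR adjusted p = 4.83e-08) at 24 h. After 8CA they were 0.21 ± 0.041 (edgeR adjusted p = 0.0219) and 0.12 ± 0.040 (edgeR adjusted p = 0.0192), and leaving out any 1 of the 4 libraries compared ended either call (edgeR adjusted p = 0.088 to 0.268 at 8 h and 0.0525 to 0.16 at 24 h). The 24 h call was also lost without the filter on low counts (edgeR adjusted p = 0.0634). In MV4-11, SRSF5 was at 262 and 254 CPM untreated, 270.1 and 274 after 8CA and 286 and 278 after 8AA at 8 h, and at 275 and 278, 286 and 278 and 293 and 299 at 24 h. Before rounding these MV4-11 groups did not overlap, yet the difference was called under TMM scaling only after 8AA at 8 h (0.13 ± 0.040, edgeR adjusted p = 0.0279), and without untreated library A, untreated library B or 8AA library A that call was lost (edgeR adjusted p = 0.0528, 0.196 and 0.142), as it was by DESeq2 (adjusted p = 0.0667). After 8AA at 24 h in MV4-11, SRSF5 passed the test when libraries were scaled by their total (0.15, edgeR adjusted p = 0.00798) or by upper quartile (0.14, edgeR adjusted p = 0.0145). Untreated KG-1a cells also held more SRSF5 at 24 h than at 8 h (0.34 ± 0.041, edgeR adjusted p = 0.00039), one of the 4.45% of genes called between the untreated groups of that line. In MV4-11 the untreated groups differed in SRSF7 alone among the 10 (−0.16 ± 0.043, edgeR adjusted p = 0.0399, where 5.54% of all genes were called).

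SRSF6 and TRA2A moved least, with a root mean square log2 fold change over the 8 comparisons of 0.113 and 0.112, against 0.243 to 0.409 for the other 8 genes. KG-1a libraries at 24 h held 385 and 369.9 CPM of SRSF6 untreated, 314 and 315 after 8CA and 361 and 370.1 after 8AA. TRA2A, the paralog of TRA2B, was at 111 and 104, 89.1 and 91.0 and 102 and 116 CPM in the same libraries. Both genes were lower after 8CA (SRSF6 −0.26 ± 0.044 and TRA2A −0.26 ± 0.059, edgeR adjusted p = 0.000163 and 0.00222) and overlapped the untreated libraries after 8AA. In the other 7 comparisons the log2 fold changes lay between −0.10 and 0.090 for SRSF6 and between −0.14 and 0.061 for TRA2A, none of them called. SRSF6 after 8AA in KG-1a at 8 h passed the test when libraries were scaled by their total (0.13, edgeR adjusted p = 0.036). Leaving out 8AA 24 h library A or B moved the KG-1a 8AA value of TRA2A between 0.11 and −0.073.

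**Figure D2:**
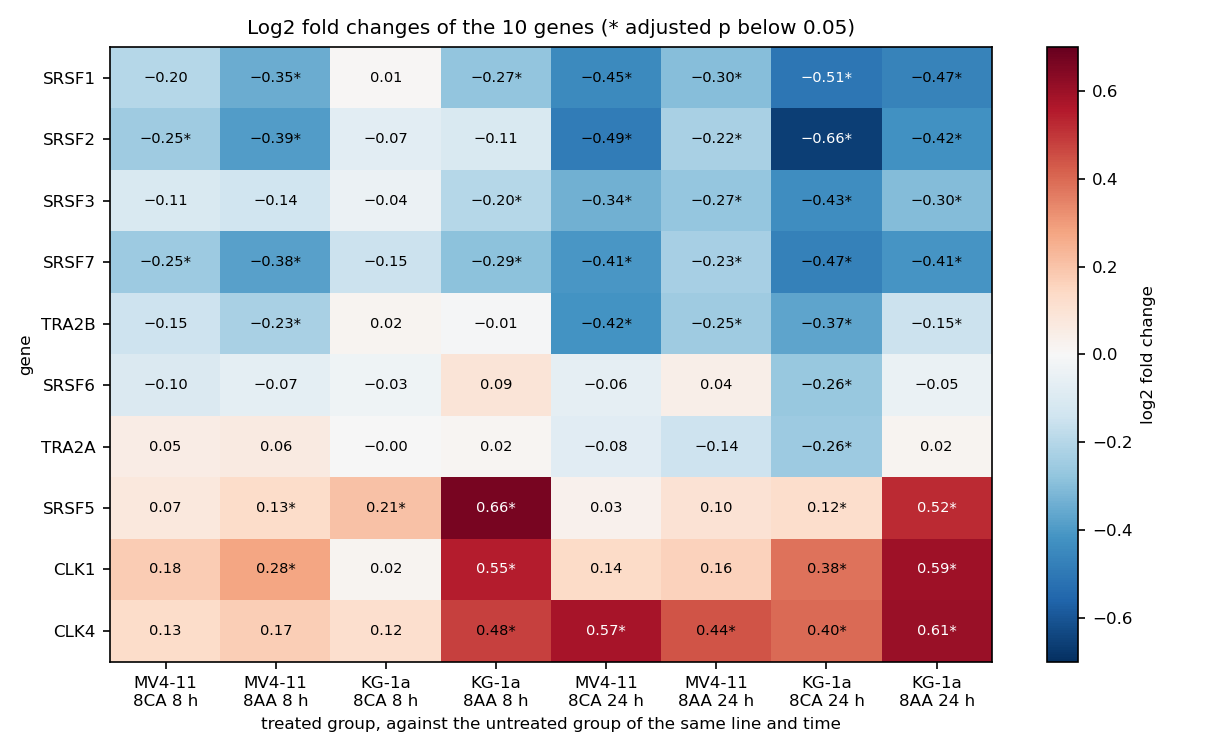
Log2 fold changes of the 10 genes (rows) in 8 comparisons of a treated group with the untreated group of its line and time (columns). Blue is lower, red is higher, and a star marks an adjusted p below 0.05. SRSF1, SRSF2, SRSF3, SRSF7 and TRA2B are starred and blue in all 4 columns at 24 h, CLK4 is starred and red in them, and the KG-1a 8CA column at 8 h has 1 star, for SRSF5 (0.21).

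Treated and untreated libraries did not overlap, in either direction, for 8 of the 10 genes after 8CA and 9 after 8AA in MV4-11 at 8 h (51.6% and 62.1% of all genes), and for 3 and 8 of them in KG-1a at 8 h (47% and 68.5%). At 24 h it was 10 and 10 in MV4-11 (73.6% and 66.3% of all genes) and 10 and 8 in KG-1a (76.8% and 72.1%), so most of all genes lay apart at that time too.

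Set beside all genes, the counts of called members ran as follows. After 8CA at 8 h, MV4-11 had 2 of 10 called lower (SRSF2 and SRSF7), where 5.77% of genes were, and 0 higher, where 4.58% were by edgeR (CLK1 alone rose at an unadjusted p under 0.05, and DESeq2 called 0). KG-1a had 1 called higher (SRSF5), where 0.7% of genes were, and 0 lower, where 0.181% were by edgeR (SRSF7 alone was lower at an unadjusted p under 0.05, and DESeq2 called 0). After 8AA at 8 h, 4 of 10 were lower and 2 higher in MV4-11 (15.6% and 13.6% of genes), and 3 lower and 3 higher in KG-1a (18% and 16.7% of genes). More members were thus called at 8 h after 8AA than after 8CA in both lines, as were more of all genes. At 24 h in MV4-11, 5 were lower and 1 higher both after 8CA (22.7% and 21.2% of genes) and after 8AA (15.3% and 13.9% of genes). In KG-1a at 24 h, 7 were lower and 3 higher after 8CA (24% and 23.4% of genes), and 5 lower and 3 higher after 8AA (26.6% and 25.4% of genes). The share called lower was above that of all genes in all comparisons but KG-1a 8CA at 8 h. The share called higher was below that of all genes in MV4-11 after 8CA at 8 h and with either drug at 24 h. The members were chosen with earlier results of these data known, so these shares describe the genes and are not a test. The median log2 fold change of the 10 genes was −0.10 after either drug in MV4-11 at 8 h, −0.21 after 8CA and −0.18 after 8AA at 24 h, and in KG-1a 0.0017 and 0.0043 at 8 h and −0.32 and −0.099 at 24 h, where medians of all genes lay between −0.0047 and 0.013.

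By size, most falls and rises of these genes lay between the 5th and 95th percentiles of all genes tested. SRSF2 after 8CA in KG-1a at 24 h (−0.66) lay below the 5th. SRSF5 after 8AA in KG-1a at 8 h (0.66) lay above the 95th, which was 0.59 there. The 5th and 95th percentiles of all log2 fold changes in KG-1a were −0.57 and 0.75 after 8CA at 24 h, and −0.67 and 0.89 after 8AA at 24 h. SRSF2 after 8CA in KG-1a was at percentile 3.56 of all genes and SRSF5 after 8AA at 8 h at percentile 96.2, the most extreme positions among the 10. In MV4-11 at 24 h the 5 lower factors stood at percentiles 7.44 to 14.3 after 8CA and 9.52 to 15.2 after 8AA, and CLK4 at percentiles 93.4 and 90.1.

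**Figure D3:**
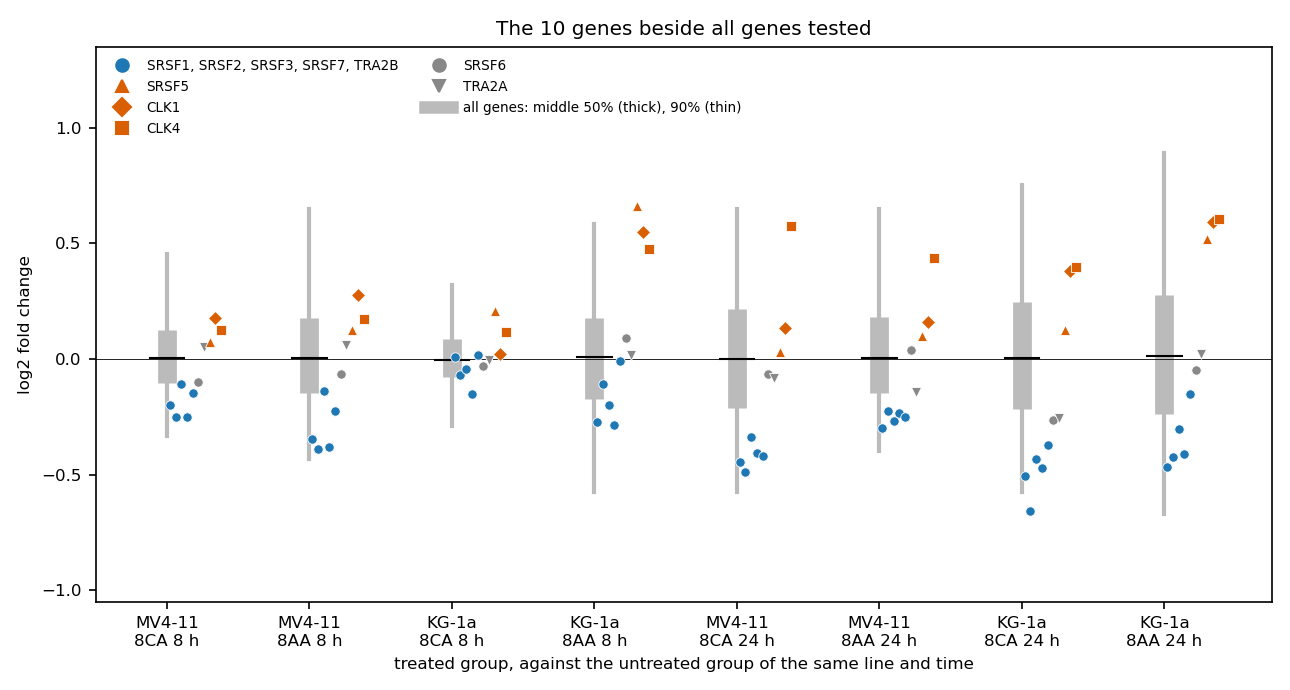
Log2 fold changes (y axis) of the 10 genes in each of 8 comparisons with untreated cells (x axis), beside all genes tested, whose middle 50% is the thick grey bar, middle 90% the thin one and median the black line. Blue points are SRSF1, SRSF2, SRSF3, SRSF7 and TRA2B, orange marks SRSF5, CLK1 and CLK4, and grey marks SRSF6 and TRA2A. At 24 h the blue points lie below the median and the orange marks above it in each comparison, and the lowest point is SRSF2 after 8CA in KG-1a (−0.66).

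Summed over SRSF1, SRSF2, SRSF3, SRSF7 and TRA2B, a sum chosen after the calls were seen, KG-1a libraries at 24 h held 2211 and 2184 CPM untreated, 1553 and 1576 after 8CA and 1683 and 1735 after 8AA. MV4-11 libraries at 24 h held 2372 and 2538, 1848 and 1820.1 and 2097 and 1999. Each of these genes was called lower in all of these comparisons, so a lower sum follows from the choice and tests nothing. The sum was lowest after 8CA in KG-1a. The summed CPM of CLK1 and CLK4 went the other way. In KG-1a at 24 h it was 127 and 121 untreated, 158 and 166 after 8CA and 177 and 198 after 8AA. In MV4-11 at 24 h it was 104 and 112, 132 and 126, and 126 and 128.

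The results after 8AA in KG-1a at 24 h rest on the pair of libraries that stood apart. All 8 member calls there were kept when library A or library B was left out, with the remaining library taken to vary like the other groups. Without library A the log2 fold change was 0.66 for CLK1, 0.70 for CLK4 and 0.50 for SRSF5, and without library B it was 0.52, 0.50 and 0.53. For the lower factors the values without A and without B were −0.41 and −0.52 (SRSF1), −0.47 and −0.38 (SRSF2), −0.26 and −0.35 (SRSF3), −0.45 and −0.38 (SRSF7) and −0.11 and −0.19 (TRA2B). The T-cell gene CD3E was also highest in this pair, at 81.7 and 69.8 CPM. Untreated KG-1a cells at 24 h held 37.9 and 38.2 CPM. The T-cell gene CD3D, at 267 and 216 CPM in the pair, overlapped its untreated level at 24 h (260 and 266 CPM). The part of either gene in these results was not tested.

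The analogs differ in 1 substituent, chlorine in 8CA and an amino group in 8AA, and were given at the same dose and times, so their groups were compared directly in 4 pairs (2 lines and 2 times). Of 40 tests, 15 were called. In MV4-11 at 8 h 0 of 10 genes differed by edgeR's quasi-likelihood test (6.66% of all genes did), although SRSF2 and SRSF7 had 95% intervals of the log2 difference, 8AA minus 8CA, that lay below 0, from −0.24 to −0.042 and from −0.22 to −0.035 (edgeR adjusted p = 0.0817 and 0.0954). These were the only members at an unadjusted p under 0.05, and DESeq2 called 0, while without the filter on low counts SRSF1 was called (−0.14, edgeR adjusted p = 0.036). In MV4-11 at 24 h SRSF2 (0.26 ± 0.046, edgeR adjusted p = 0.000785) and SRSF7 (0.18 ± 0.043, edgeR adjusted p = 0.00883) were higher after 8AA than after 8CA (11.7% of genes were called higher and 9.48% lower). SRSF7 was not called without 8CA library A (0.13, edgeR adjusted p = 0.13) or 8AA library A (0.15, edgeR adjusted p = 0.0733). Without the filter SRSF1 (0.14, edgeR adjusted p = 0.0166) and TRA2B (0.16, edgeR adjusted p = 0.00879) were called as well.

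Of the 15 calls between the drugs, 13 were in KG-1a. At 8 h, 8AA libraries held more CLK1 (0.53 ± 0.058, edgeR adjusted p = 9.38e-06), SRSF5 (0.46 ± 0.040, edgeR adjusted p = 1.06e-06), CLK4 (0.36 ± 0.087, edgeR adjusted p = 0.00551) and SRSF6 (0.12 ± 0.044, edgeR adjusted p = 0.0462) than 8CA libraries. They held less SRSF1 (−0.28 ± 0.050, edgeR adjusted p = 0.000581), SRSF3 (−0.16 ± 0.052, edgeR adjusted p = 0.0301) and SRSF7 (−0.13 ± 0.044, edgeR adjusted p = 0.0334). So 4 genes were called higher and 3 lower (14.7% and 15.8% of all genes). Those of SRSF3, SRSF6 and SRSF7 were lost when any 1 of the 4 libraries compared was left out (edgeR adjusted p = 0.0741 to 0.291), and that of CLK4 without 8CA library A or 8AA library B (edgeR adjusted p = 0.0509 and 0.0633). With all libraries in, SRSF3 was not called under scaling by library total, SRSF6 with DESeq2 size factors, without the filter or by DESeq2, and SRSF7 under library total, upper-quartile scaling or no filter (adjusted p = 0.0559 to 0.0978 over these).

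At 24 h in KG-1a, 6 genes were higher after 8AA than after 8CA and 0 lower by edgeR, also at an unadjusted p under 0.05, where 20.3% of all genes were called higher and 21.7% lower. Higher were SRSF5 (0.40 ± 0.040, edgeR adjusted p = 1.44e-06), TRA2A (0.28 ± 0.059, edgeR adjusted p = 0.00139), SRSF2 (0.23 ± 0.044, edgeR adjusted p = 0.000506), TRA2B (0.22 ± 0.050, edgeR adjusted p = 0.00239), SRSF6 (0.22 ± 0.044, edgeR adjusted p = 0.00105) and CLK1 (0.21 ± 0.056, edgeR adjusted p = 0.00647). In 9 of the 10 genes both 8AA libraries were above both 8CA libraries, as in 32.8% of all genes, and SRSF1 overlapped. With 8AA library A left out, these differences were 0.38 (SRSF5), 0.37 (TRA2A), 0.19 (SRSF2), 0.26 (TRA2B), 0.23 (SRSF6) and 0.28 (CLK1). With 8AA library B left out, they were 0.41, 0.18, 0.28, 0.18, 0.20 and 0.14 in the same order. Such a fit takes the remaining library to vary like the other groups, so it does not test the spread of the pair that stood apart. Without 8CA library A the call of CLK1 was lost (0.18). SRSF3 and CLK4 were not called (0.0575 and 0.0551, both edgeR adjusted p) under TMM scaling. Both were called when libraries were scaled by their total, SRSF3 at 0.20 (edgeR adjusted p = 0.00779) and CLK4 at 0.28 (edgeR adjusted p = 0.018). Both were also called under upper-quartile scaling (edgeR adjusted p = 0.017 and 0.0259) and without the filter on low counts (edgeR adjusted p = 0.036 and 0.0192). Without 8AA library A the differences were 0.18 for SRSF3 and 0.31 for CLK4. Without 8AA library B they were smaller, at 0.080 and 0.11.

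Where a drug difference was not called, the intervals bound it. In KG-1a at 24 h the 95% interval of 8AA minus 8CA ran from −0.064 to 0.15 on the log2 scale for SRSF1 and from −0.033 to 0.16 for SRSF7, which was called when libraries were scaled by their total (0.13, edgeR adjusted p = 0.0226). For TRA2B and TRA2A in KG-1a at 8 h it ran from −0.13 to 0.081 and from −0.10 to 0.14. In MV4-11 at 24 h it ran from −0.12 to 0.17 for CLK1, from −0.28 to 0.0069 for CLK4 and from −0.016 to 0.15 for SRSF5. These tests leave room for small differences and do not show that the drugs act alike on these genes.

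**Figure D4:**
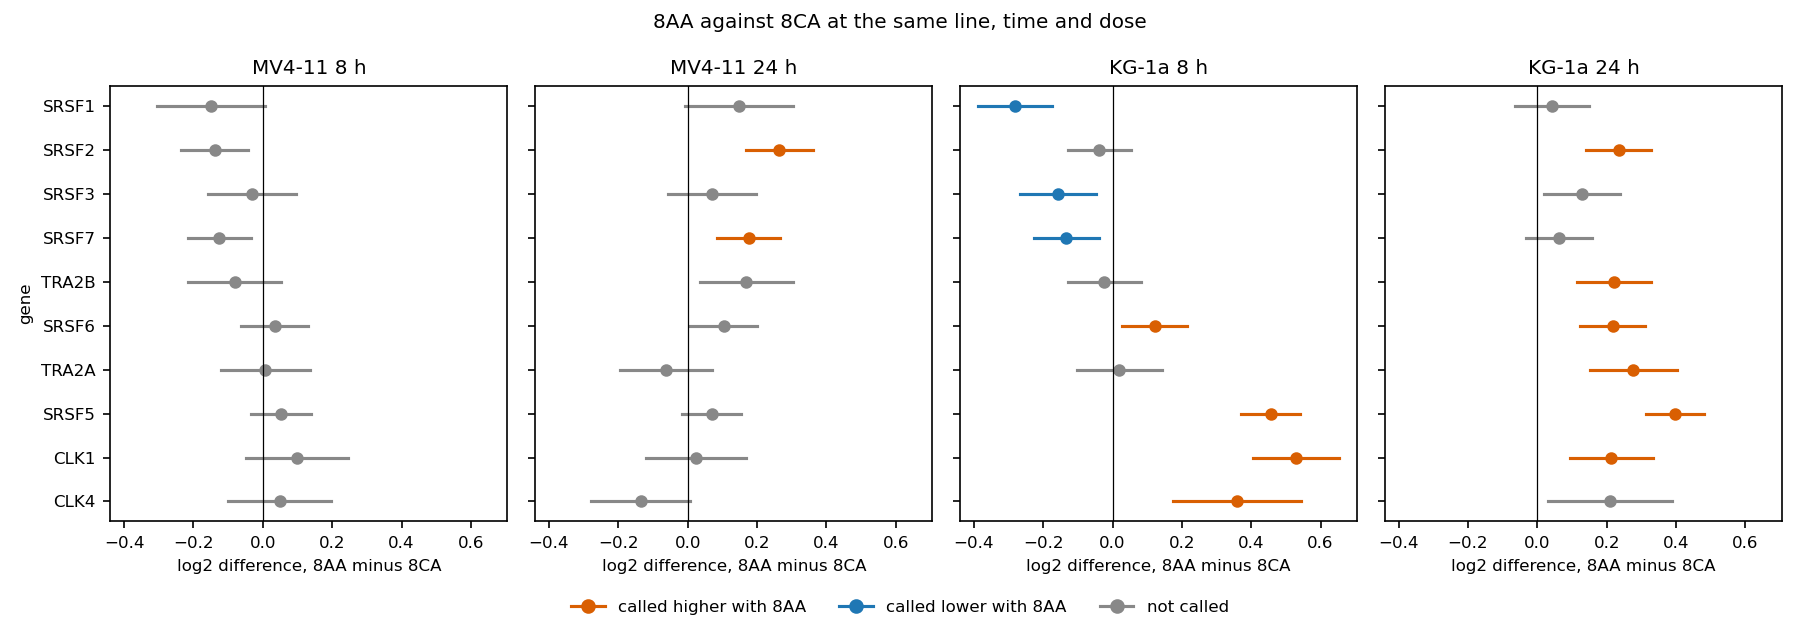
Log2 difference of 8AA minus 8CA (x axis) for each of the 10 genes (y axis) in MV4-11 and KG-1a at 8 h and 24 h, with points at the estimate and bars for the 95% interval. Orange is called higher after 8AA, blue called lower, and grey not called. MV4-11 at 8 h has no coloured point, and in KG-1a CLK1 (0.53) and SRSF5 (0.46) at 8 h lie farthest to the right.

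Whether a change grew between 8 h and 24 h was tested as the 24 h change minus the 8 h change. After 8CA in KG-1a, 7 genes were called further down at 24 h and 1 further up (12.7% and 11.2% of all genes), led by SRSF2 (−0.59 ± 0.061, edgeR adjusted p = 9.35e-06), SRSF1 (−0.51 ± 0.070, edgeR adjusted p = 0.000106), SRSF3 (−0.39 ± 0.073, edgeR adjusted p = 0.0013) and TRA2B (−0.39 ± 0.071, edgeR adjusted p = 0.00108), with CLK1 the gene further up (0.36 ± 0.083, edgeR adjusted p = 0.00548). The calls of SRSF7 (−0.32 ± 0.063, edgeR adjusted p = 0.00179), SRSF6 (−0.23 ± 0.063, edgeR adjusted p = 0.0137) and TRA2A (−0.25 ± 0.083, edgeR adjusted p = 0.0371) complete this set. After 8CA in MV4-11, 2 were further down and 1 further up (9.83% and 6.48% of all genes), which were SRSF2 (−0.24 ± 0.064), TRA2B (−0.27 ± 0.089) and CLK4 (0.45 ± 0.10). Of these 11 calls after 8CA, 4 were not kept throughout the 14 alternatives, those of SRSF6 in KG-1a (kept in 10, edgeR adjusted p up to 0.0766), TRA2A in KG-1a (kept in 4, up to 0.131), SRSF2 in MV4-11 (kept in 9, up to 0.111) and TRA2B in MV4-11 (kept in 4, up to 0.219). After 8AA, SRSF2 in KG-1a alone was called (−0.31 ± 0.061, edgeR adjusted p = 0.00229, where 10.7% of all genes were called further down and 7.64% further up), and in MV4-11 0 of 10 genes were by edgeR's quasi-likelihood test, where 4.63% of all genes were. DESeq2 also called 0 there, and no gene's unadjusted 95% interval other than those of SRSF2 (0.027 to 0.30), SRSF7 (0.018 to 0.28), TRA2A (−0.39 to −0.019) and CLK4 (0.052 to 0.48) left out 0.

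Between the lines, 8 changes differed in a fit of all 24 libraries (14055 genes tested), and 3 of these calls were kept in all 14 alternatives. After 8AA, SRSF5 rose less in MV4-11 than in KG-1a at 8 h, with a difference in log2 fold change of −0.50 ± 0.053 (edgeR adjusted p = 2.01e-06), and at 24 h (−0.40 ± 0.053, edgeR adjusted p = 5.81e-06), and CLK1 rose less at 24 h (−0.41 ± 0.092, edgeR adjusted p = 0.00181). After 8AA the change of SRSF2 was lower in MV4-11 at 8 h (−0.24 ± 0.061, edgeR adjusted p = 0.011) and higher at 24 h (0.22 ± 0.061, edgeR adjusted p = 0.0102), and that of SRSF7 was higher at 24 h (0.20 ± 0.060, edgeR adjusted p = 0.017). After 8CA at 24 h, the changes of SRSF2 (0.19 ± 0.061, edgeR adjusted p = 0.0453) and SRSF6 (0.22 ± 0.062, edgeR adjusted p = 0.0202) were higher in MV4-11. After 8AA, 2 members were called lower and 0 higher at 8 h (3.6% and 7.49% of all genes) and 2 lower and 2 higher at 24 h (8.51% and 13.8%), and after 8CA 2 were called higher and 0 lower at 24 h (5.76% and 5.44%). After 8CA at 8 h 0 of 10 were called by edgeR or by DESeq2, where 1.15% of all genes were called by edgeR. At an unadjusted p under 0.05 there were 3 (SRSF1, SRSF2 and SRSF5). The 3 calls kept in all alternatives were those of SRSF5 at both times and of CLK1, all after 8AA. Without KG-1a 8AA 24 h library B, one of the pair that stood apart, the 24 h differences of SRSF2 and SRSF7 after 8AA were 0.097 and 0.087 (edgeR adjusted p = 0.289 and 0.349), and these calls were kept in 8 and 7 of the 14 alternatives. After 8CA at 24 h those of SRSF2 and SRSF6 were kept in 3 and 7 (edgeR adjusted p up to 0.245 and 0.116). That of SRSF2 after 8AA at 8 h was kept in 13, and lost without MV4-11 untreated library A (edgeR adjusted p = 0.0802).

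Untreated cells of the lines differed in these genes too. MV4-11 held more SRSF7 than KG-1a at 8 h (0.49 ± 0.042, edgeR adjusted p = 1.17e-10) and at 24 h (0.35 ± 0.042, edgeR adjusted p = 5.63e-08), and more SRSF2, SRSF3 and TRA2B at both times (log2 differences of 0.23 to 0.33). TRA2A was lower in MV4-11, with log2 differences of −0.38 ± 0.061 at 8 h and −0.34 ± 0.062 at 24 h. At 8 h, 6 of 10 genes were called, and 6 of 10 at 24 h, where 82.2% and 82% of all genes were.

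The other SR proteins and their kinases were counted from a list of 13 genes, of which 12 are in the table, 11 passed the filter in MV4-11 and 10 did in KG-1a. In MV4-11 at 8 h, 2 were lower and 0 higher after 8CA (5.77% and 4.58% of all genes), and 4 lower and 1 higher after 8AA (15.6% and 13.6%). In KG-1a at 8 h, 8CA gave no call by edgeR (0.181% and 0.7% of all genes), and 8AA 1 lower and 2 higher (18% and 16.7%). In MV4-11 at 24 h, 4 were lower and 3 higher after 8CA (22.7% and 21.2% of all genes), and 4 lower and 0 higher after 8AA (15.3% and 13.9%). In KG-1a at 24 h, 2 were lower and 3 higher after 8CA (24% and 23.4% of all genes), and 2 lower and 4 higher after 8AA (26.6% and 25.4%). SRSF9 fell at 24 h with both drugs in both lines, with log2 fold changes of −0.40 ± 0.056 after 8CA and −0.22 ± 0.056 after 8AA in MV4-11 and −0.42 ± 0.049 and −0.35 ± 0.049 in KG-1a (edgeR adjusted p = 3.66e-05, 0.00683, 5.44e-06 and 2.42e-05). SRSF4 was called lower in MV4-11 in all 4 comparisons (−0.23 to −0.15) and in 0 of the KG-1a comparisons, where its log2 fold changes lay between −0.056 and 0.080. SRSF10 was lower in 4 comparisons, and SRSF11 was higher in 1, after 8AA in KG-1a at 24 h (0.31 ± 0.12, edgeR adjusted p = 0.037). SRSF12, at no more than 0.0502 CPM, was tested in neither line, and SRPK3, at no more than 0.146 CPM in KG-1a, was tested only in MV4-11, where at 1.16 CPM or less it was called higher after 8CA at 24 h (0.90 ± 0.30, edgeR adjusted p = 0.0238).

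Among the kinases, SRPK1, the cytoplasmic kinase that moves SR proteins to the nucleus, was called lower in 6 of 8 comparisons. In KG-1a at 24 h SRPK1 was at 205 and 198 CPM untreated, 194 and 199 after 8CA and 134 and 144 after 8AA, and at 8 h at 189 and 192, 183 and 185 and 139.8 and 145. It was thus low after 8AA and close to the untreated level after 8CA in this line. The log2 fold changes after 8AA in KG-1a were −0.42 ± 0.047 (edgeR adjusted p = 8.03e-06) at 8 h and −0.53 ± 0.047 (edgeR adjusted p = 2.19e-07) at 24 h, and after 8CA −0.051 ± 0.047 and −0.038 ± 0.047, neither called. In MV4-11 SRPK1 fell with both drugs at both times, by log2 fold changes of −0.47 to −0.25. CLK3 was higher in KG-1a in the same 3 comparisons as CLK1 and CLK4 (0.35 ± 0.066, 0.24 ± 0.067 and 0.29 ± 0.067) and in 0 of 4 in MV4-11. CLK2 was higher after 8AA in KG-1a (0.17 ± 0.053 at 8 h and 0.15 ± 0.053 at 24 h), SRPK2 after 8CA at 24 h in both lines (0.32 ± 0.063 and 0.20 ± 0.061), and DYRK1A in 4 comparisons. PRPF4B was called in none of the 8.

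**Figure D5:**
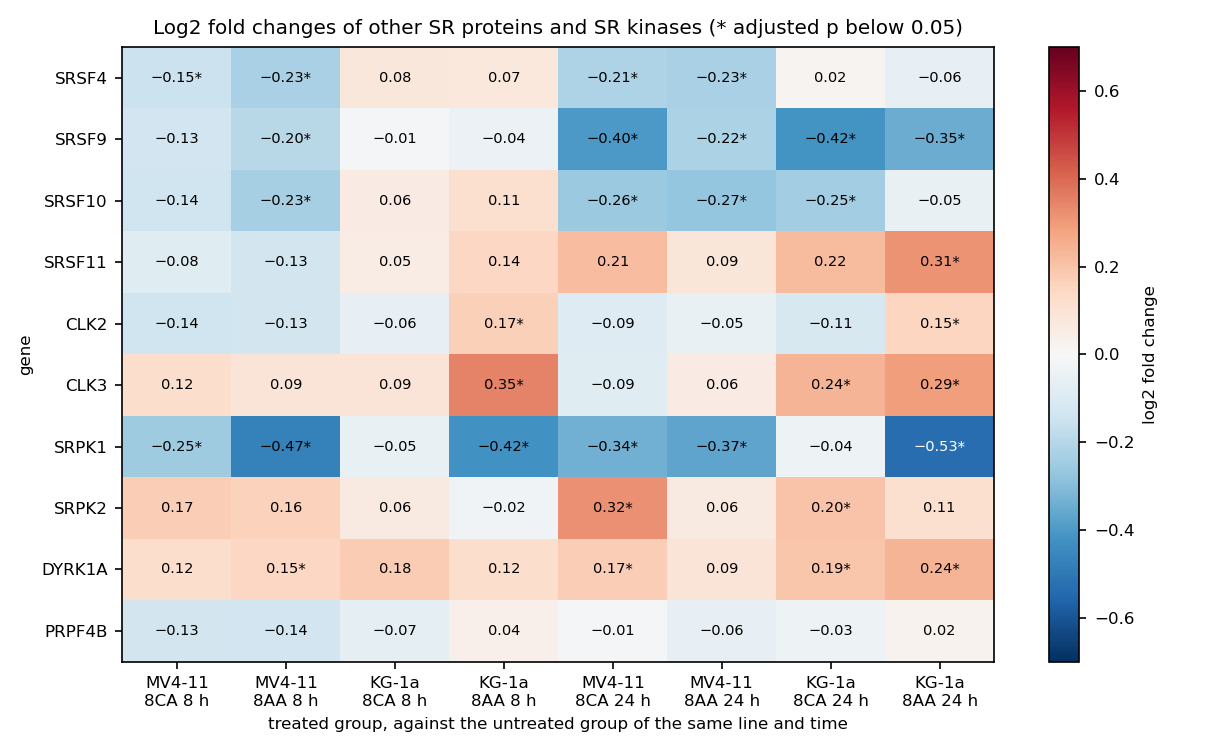
Log2 fold changes of 10 other SR proteins and SR kinases (rows) in the 8 comparisons with untreated cells (columns), with blue for lower, red for higher and a star for an adjusted p below 0.05. SRPK1 is starred and blue in 6 columns, and SRSF9 is starred and blue in all 4 columns at 24 h.

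Other splicing proteins were counted from lists chosen by family. Of 36 proteins with SR-like domains or that bind SR proteins, all tested, 5 were lower and 14 higher after 8CA in MV4-11 at 24 h (22.7% and 21.2% of all genes), and 6 lower and 16 higher in KG-1a (24% and 23.4%), with median log2 fold changes of 0.061 and 0.060. After 8AA at 24 h, 7 were lower and 6 higher in MV4-11 (15.3% and 13.9% of all genes), and 9 lower and 12 higher in KG-1a (26.6% and 25.4%), with medians of −0.049 and 0.033. At 8 h in MV4-11, 2 were lower and 0 higher after 8CA (5.77% and 4.58% of all genes), and 12 lower and 1 higher after 8AA (15.6% and 13.6%). At 8 h in KG-1a, 2 were lower and 1 higher after 8CA (0.181% and 0.7% of all genes), and 6 lower and 10 higher after 8AA (18% and 16.7%). The 8 h medians after 8CA and 8AA were −0.048 and −0.067 in MV4-11, and 0.00071 and −0.026 in KG-1a. SRRM1, a coactivator that joins SR proteins in splicing complexes, was lower in all 8 comparisons (−0.32 to −0.14), and U2AF2, which binds the polypyrimidine tract, in all 4 at 24 h. RSRP1, an SR-rich protein, was higher in 6 (up to 0.72 ± 0.075 after 8AA in KG-1a at 8 h), and LUC7L3 in all 4 at 24 h. Of the hnRNP proteins, which often act against SR proteins at exons, 19 of 25 tested were lower and 1 higher after 8CA in MV4-11 at 24 h (22.7% and 21.2% of all genes), and 14 lower and 0 higher after 8AA (15.3% and 13.9%). KG-1a at 24 h had 16 of 24 tested lower and 1 higher after 8CA (24% and 23.4% of all genes), and 13 lower and 2 higher after 8AA (26.6% and 25.4%). HNRNPA2B1 fell at 24 h, with log2 fold changes of −0.61 ± 0.048 after 8CA and −0.45 ± 0.048 after 8AA in MV4-11, and −0.59 ± 0.043 and −0.51 ± 0.043 in KG-1a. HNRNPAB was lower in 7 of 8 comparisons (mean log2 fold change −0.43), while HNRNPUL2 and PCBP2 had the highest means of the list (0.050 and 0.082). At 8 h in MV4-11, 4 hnRNP genes were lower and 0 higher after 8CA (5.77% and 4.58% of all genes), and 6 lower and 1 higher after 8AA (15.6% and 13.6%). At 8 h in KG-1a, 8CA gave no call by edgeR (0.181% and 0.7% of all genes), and 8AA 6 lower and 3 higher (18% and 16.7%). Median log2 fold changes of the hnRNP genes tested at 24 h were −0.16 and −0.17 in MV4-11 and −0.26 and −0.20 in KG-1a after 8CA and 8AA, where those of all genes were between 0.0022 and 0.013.

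The genes whose 8 log2 fold changes lay closest to those of SRSF2, by the root mean square of the 8 differences, were NOP10 (0.049), POP7 (0.067) and CMC2 (0.074). For CLK4 they were FRY (0.059), ZNF33A (0.061) and EZH1 (0.089). NOP10 stood at −0.47 and −0.26 after 8CA and 8AA in MV4-11 at 24 h, and at −0.73 and −0.49 in KG-1a.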

How the data were processed

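RNA of MV4-11 and KG-1a cells, extracted with the QIAGEN RNeasy Micro Kit, was sequenced by the authors, who deposited a table of raw counts per gene for 24 libraries, not normalized. The submitters' processing notes list Trimmomatic, STAR 2.6.0, HTSeq 0.11.1 and edgeR, and name 2 genome builds without a role for either. The gene positions in the table matched RefSeq GRCh38.p14 at 0 of 10 members, so they are not printed, and strand use is not given in the sources used here. Reads of paralogs or overlapping genes may be split or shared. The exon lengths in kilobases used for RPKM stand in the deposited table.

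Low genes were left out by filterByExpr (minimum count 10). After TMM scaling, edgeR 4.0.16 in R 4.3.3 was used to fit the quasi-likelihood model to the 12 libraries of a line, with 1 coefficient per group, or to all 24 for differences between lines. The standard error is the log2 difference divided by the square root of F. p-values were adjusted by Benjamini-Hochberg over all genes tested, with a threshold of 0.05. Calls were also made with DESeq2 1.42.0, with other scalings, without the filter, with the replicate letter as a block and with each library left out. The scripts were tested on simulated data. With 2 libraries per group, precision rests on the spread shared across groups. The members and lists were chosen with earlier results of these data known. Named are all members, the other SR proteins and SR kinases, the 2 genes of each further list with the lowest and the 2 with the highest mean change, and the 3 genes nearest to each of the 2 members that moved most.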

Additional observations from a re-analysis of the deposited data

Results flagged for a closer look

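The 20 results below are differences between times or between lines that passed edgeR's quasi-likelihood test of the difference itself, and no explanation was tested. Log2 fold changes at 24 h minus those at 8 h, with 8CA in KG-1a, were −0.51 for SRSF1, −0.59 for SRSF2, −0.39 for SRSF3, −0.23 for SRSF6, −0.32 for SRSF7, −0.25 for TRA2A, −0.39 for TRA2B and 0.36 for CLK1. With 8CA in MV4-11 they were −0.24 for SRSF2, −0.27 for TRA2B and 0.45 for CLK4, and with 8AA in KG-1a −0.31 for SRSF2. Those of SRSF6 and TRA2A in KG-1a and of SRSF2 and TRA2B in MV4-11 were kept in 10, 4, 9 and 4 of 14 alternatives.

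Log2 fold changes in MV4-11 minus those in KG-1a, with 8AA, were −0.24 for SRSF2 and −0.50 for SRSF5 at 8 h, and 0.22 for SRSF2, −0.40 for SRSF5, 0.20 for SRSF7 and −0.41 for CLK1 at 24 h. With 8CA at 24 h they were 0.19 for SRSF2 and 0.22 for SRSF6. The 24 h differences of SRSF2 and SRSF7 with 8AA were 0.097 and 0.087 without KG-1a 8AA library B and did not pass the test there (edgeR adjusted p = 0.289 and 0.349). Of the 12 differences between times 8 passed the test in all alternatives, and of the 8 between lines 3 did, SRSF5 at both times and CLK1 at 24 h, all with 8AA.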

How the results depend on the processing

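Of 45 member calls against untreated cells, 35 were kept in all 10 alternatives, and of 15 between the drugs 9 were. Scaling by library total moved the median of all genes with 8AA in KG-1a at 24 h from 0.013 to 0.11 (log2). Lower calls were 51.2% to 55.8% of all calls in MV4-11 after either drug and in KG-1a after 8AA, and 35.5% to 41.8% under that scaling, while after 8CA in KG-1a at 8 h they were 20.5%, against 33.5% without the filter and 31.2% with the replicate block. After 8CA in MV4-11 at 8 h DESeq2 gave 68.3%. Between the drugs the share of lower calls went from 51.6% to 36.4% under library total in KG-1a at 24 h and from 55.6% to 41.0% under upper quartile in MV4-11 at 8 h, between times in KG-1a from 58.3% to 39.2% (8AA) and from 53.1% to 41.9% (8CA) under upper quartile, and between lines after 8AA from 32.5% to 44.1% under library total and 58.2% without the filter (8 h) and from 38.2% to 54.0% under library total, 51.9% under upper quartile and 56.7% without the filter (24 h).

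Member counts moved by over 1.5 times as follows. Members called higher with 8CA in MV4-11 at 24 h were 2, not 1, under library total, upper-quartile scaling or no filter. With 8AA there they were 3 under either scaling and 2 without the filter or with the replicate block. Members called lower with 8CA in MV4-11 at 8 h were 4, not 2, without the filter or with the block, and with 8AA at 8 h 1, not 2, was higher under DESeq2. All genes called with 8CA at 8 h were 272 without the filter and 205 with the block, not 112, in KG-1a, and 840, not 1325, under DESeq2 in MV4-11. Members differing between drugs in MV4-11 were 1 at 8 h (0 in the fit reported) and 4 at 24 h (2) without the filter, and 2 and 5 with the replicate block. Members differing between times were 5 (3) with 8CA in MV4-11 and 2 (1) with 8AA in KG-1a without the filter, and 6 and 2 with the block. Members differing between lines were 5 (2) with 8AA at 8 h without the filter, 1 (2) with 8CA at 24 h under upper quartile, no filter or the block, and 2 (4) with 8AA at 24 h under library total, upper quartile or no filter. The deviations of letters A and B had correlations between −0.085 and 0.16. The highest were in MV4-11 at 8 h (0.13 with 8CA and 0.16 with 8AA). There the summed CPM of the members was higher in A than in B in each group. It was 3559 and 3276 untreated, 3217 and 2996 after 8CA and 3079 and 2868 after 8AA. In KG-1a at 8 h B was the higher in each group, and at 24 h the order differed between groups. The letters mark no stated batch, whether they act as one was not tested, and the block is given only here. With it SRSF1 and TRA2B (8CA) and SRSF3 and CLK4 (8AA) at 8 h and SRSF5 and TRA2A (8AA) at 24 h were also called against untreated MV4-11, and SRSF3 and CLK4 between drugs in KG-1a at 24 h.

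Signs that turned under a scaling, all of uncalled values, were TRA2A with 8CA (0.0085) and TRA2B with 8AA (0.029, upper quartile 0.0037) in KG-1a at 8 h, SRSF6 with 8AA in KG-1a at 24 h (0.048, upper quartile 0.026) and TRA2B between drugs in KG-1a at 8 h (0.00066).

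With 1 library left out, all genes called ranged from 576 to 774 (MV4-11 8CA 8 h), 28 to 37 (KG-1a 8CA 8 h), 2841 to 3265 (KG-1a 8AA 8 h) and 2293 to 2833 (MV4-11 8AA 24 h). Members ranged from 0 to 3 higher (MV4-11 8AA 8 h), 0 higher throughout (KG-1a 8CA 8 h), 2 to 5 lower (MV4-11 8AA 24 h), 3 to 4 between drugs in KG-1a at 8 h (7 in the fit reported), 1 to 2 in MV4-11 at 24 h, 1 to 4 between times with 8CA in MV4-11 and with 8AA in KG-1a, and 1 to 2 (8AA 8 h), 0 to 1 (8CA 24 h) and 2 to 5 (8AA 24 h) between lines. Uncalled values whose sign turned ranged from −0.046 to 0.14 and −0.034 to 0.15 (TRA2A, MV4-11 8 h, 8CA and 8AA), −0.0037 to 0.066 (SRSF6, MV4-11 8AA 24 h), −0.073 to 0.11 (TRA2A, KG-1a 8AA 24 h) and −0.080 to 0.075 (TRA2B, KG-1a 8AA 8 h). With 8CA in KG-1a at 8 h they ranged from −0.059 to 0.082 (SRSF1), −0.12 to 0.042 (SRSF3), −0.066 to 0.0086 (SRSF6), −0.017 to 0.016 (TRA2A), −0.055 to 0.099 (TRA2B) and −0.031 to 0.081 (CLK1). Between drugs in MV4-11 at 8 h they ranged from −0.10 to 0.052 (SRSF3), −0.012 to 0.091 (SRSF6), −0.044 to 0.069 (TRA2A), −0.16 to 0.0061 (TRA2B) and −0.023 to 0.13 (CLK4), and at 24 h from −0.022 to 0.054 (CLK1, MV4-11) and −0.014 to 0.095 (SRSF1, KG-1a). Where a count fell with a library left out, fewer libraries entered the fit.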
